A study of Mus musculus with 25 samples.

Results

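The maternally methylated imprinted regions described here are 10 windows of 3 to 6 kb on mm9, each named for an imprinted gene. The members were taken from a list of windows and not by a rule on measured values. The list was chosen with earlier results of these data known. They held 269 CpGs with at least 5 reads in at least 1 of 25 libraries, of 1521234 such CpGs on the 19 autosomes. Counted as regions, they are 10 of 260605 windows and 1-kb tiles that held such a CpG.

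At an imprinted gene, 1 parental copy is silenced according to the parent it came from. At the regions studied here the mark is laid down in the oocyte, so that the maternal copy carries DNA methylation and the paternal copy does not, and the difference is kept through the wave of demethylation in the early embryo. In body cells such a region therefore reads close to 50% when both copies are read equally. In blood-forming stem cells several imprinted genes are known as regulators of growth and quiescence.

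Methylation was measured by reduced representation bisulfite sequencing (RRBS). The method sequences CpG-rich restriction fragments after bisulfite has converted every cytosine that carries no methyl group, and the base left in a read shows the state of the CpG. All libraries came from haematopoietic stem cells (HSCs), the self-renewing cells of the blood system, of C57Bl/6 mice. Fetal HSCs were from liver at e14.5 (n = 2), and all other HSCs were from bone marrow. Young mice were aged 3.5 months (n = 2) and old mice 25 months (n = 2). Mice of 3.5 months followed for 6 more months had 0 (n = 3), 2 (n = 3) or 4 (n = 2) doses of 5-fluorouracil (5-FU), a drug that kills dividing cells. Other libraries were made after transplantation: of young HSCs with 10 (n = 3), 50 (n = 1) and 500 (n = 1) cells, and of old HSCs with 10 (n = 2), 50 (n = 1) and 500 (n = 3) cells. The labels give neither the hosts nor the time after transplantation, and neither sex nor whether replicates were separate animals. In an inbred strain the parental copies carry the same sequence, so a level is a sum over both copies. No expression was measured, so the identity of the cells was not checked against marker genes. The design asked how HSC methylation differs during ontogeny and after forced proliferation.

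The windows differ in the kind of gene they serve. Peg3 (chr7:6679001-6685000) and Plagl1 (chr10:12809001-12813000) encode zinc finger proteins. Snrpn (chr7:67147001-67152000) encodes a splicing protein, and Zrsr1 (chr11:22871001-22875000) a retrogene relative of a splicing factor that lies inside an intron of Commd1. Kcnq1ot1 (chr7:150479001-150484000) is a long noncoding RNA that silences its neighbours on the paternal copy. The Igf2r window (chr17:12934001-12937000) lies at a region that serves the receptor for insulin-like growth factor 2 and the noncoding RNA Airn. Grb10 (chr11:11924001-11928000) is an adaptor that dampens growth factor signalling, and Impact encodes a regulator of the stress response of translation. Mest (chr6:30685001-30690000) encodes a hydrolase-like protein, and Peg10 (chr6:4695001-4700000) derives from a retrotransposon. No annotation on mm9 was used, so exons and introns are not assigned to single CpGs.

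For the windows of Plagl1 and Zrsr1, RefSeq promoter sequences (GRCm38.p6) could be laid on the deposited CpGs. They are shown because they give the sequence context of CpGs whose levels are reported here. The match rested on the spacing of CpGs alone. Only placements in which every listed mm9 CpG of the span coincided with a CpG of the promoter were scored. The best of these matched 18 CpGs for Plagl1, 7 for Zrsr1 and 14 for a start of Commd1 inside the Zrsr1 window. The next best placement of this kind matched 1, 1 and 2 CpGs. The 250 bases before each start are given 5′ to 3′, with the CpGs that had at least 5 reads in at least 13 libraries in capitals. On GRCm38.p6 they lie at chr10:13090582-13090831 (plus strand), chr11:22971755-22972004 (plus strand) and chr11:22972867-22973116 (minus strand).
Plagl1: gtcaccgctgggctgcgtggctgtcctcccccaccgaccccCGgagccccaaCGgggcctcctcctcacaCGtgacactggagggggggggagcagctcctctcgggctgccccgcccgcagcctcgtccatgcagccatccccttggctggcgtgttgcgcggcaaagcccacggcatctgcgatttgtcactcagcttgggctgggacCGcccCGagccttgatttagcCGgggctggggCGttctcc
Zrsr1: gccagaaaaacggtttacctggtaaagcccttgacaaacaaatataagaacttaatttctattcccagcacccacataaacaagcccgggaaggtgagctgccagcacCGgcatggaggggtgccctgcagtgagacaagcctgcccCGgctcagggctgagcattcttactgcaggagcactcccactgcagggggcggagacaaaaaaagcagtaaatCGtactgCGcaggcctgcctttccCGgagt
Commd1: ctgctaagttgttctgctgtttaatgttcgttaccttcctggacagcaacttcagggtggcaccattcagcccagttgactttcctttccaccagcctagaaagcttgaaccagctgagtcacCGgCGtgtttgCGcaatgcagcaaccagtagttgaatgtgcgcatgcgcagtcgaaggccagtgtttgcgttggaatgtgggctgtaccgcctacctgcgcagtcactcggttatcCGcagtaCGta
The 7 capital CpGs before the start of Plagl1 had median levels over libraries of 33.3% to 51.3%. The 5 before the start of Zrsr1 had 33.0% to 49.2%, and the 5 before the start of Commd1 had 42.1% to 45.1%. The hexamer TGCCGC, the core of the motif bound by ZFP57, a protein known to protect imprinted methylation, was searched on both strands. It occurred 1 time in the Plagl1 sequence and 0 times in the other two, while 8.68% of 32851 RefSeq promoter sequences of the same length held it. The hexamer contains a CpG, and the Plagl1, Zrsr1 and Commd1 sequences held 19, 8 and 13 CpGs against a median of 6 over all. That share is thus not one of sequences with as many CpGs. A start of Snrpn also matched, with 4 CpGs, but only 1 CpG before it had enough reads.

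The Impact window lies at chr18:13129001-13133000. Levels are the percent of reads methylated, summed over the CpGs of a window with at least 5 reads in that library. Of the 250 values of 10 windows in 25 libraries, 232 were under 50% and 18 at 50% or more, with a median of 35.5%. Between 20% and 60% lay 214 values, 30 were under 20% and 6 over 60%. The median over the 10 windows was under 50% in all 25 libraries, from 24.2% to 45.6%. Grb10 and Impact had the lowest medians over libraries, 29.3% and 28.4%, and Peg3 the highest, 42.4%. The other 7 medians lay between 33.5% (Kcnq1ot1) and 39.2% (Igf2r). Neighbours among these 7 did not lie apart beyond the spread within groups, whose median SD ran from 2.46 points (Igf2r) to 8.71 (Peg10) over the 10 windows.

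The depth behind these values was uneven. A library held 22835325 to 105187091 reads over 1246435 to 1619487 CpGs. The 2 young libraries were the deepest, with 88351506 and 105187091 reads, against at most 63394281 in any other library. The part of this depth in the differences from young HSCs was not tested. Zrsr1 had 675 to 5556 reads per library, Grb10 967 to 4536 and Plagl1 496 to 3563. Peg3 had 94 to 545 reads over the same 5 CpGs in every library, which span 67 bp. Peg10 had 22 to 615 reads, and no CpG of it had 5 reads in all 25 libraries. The 9 CpGs of Peg10 with at least 5 reads in at least 13 libraries spanned 136 bp. Of the 6 such CpGs of Mest, all except that at chr6:30685294 lay at chr6:30689254-30689333. The levels of these windows thus rest on short stretches. Reads are counted at each CpG, so a fragment over several CpGs counts several times, and counting errors and intervals are lower limits. The spread over libraries was larger than that of counting in all 10 windows, with an SD of 5.30 points against 1.06 from counting for Zrsr1 and 25.1 against 2.61 for Peg10.

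**Figure D1:**
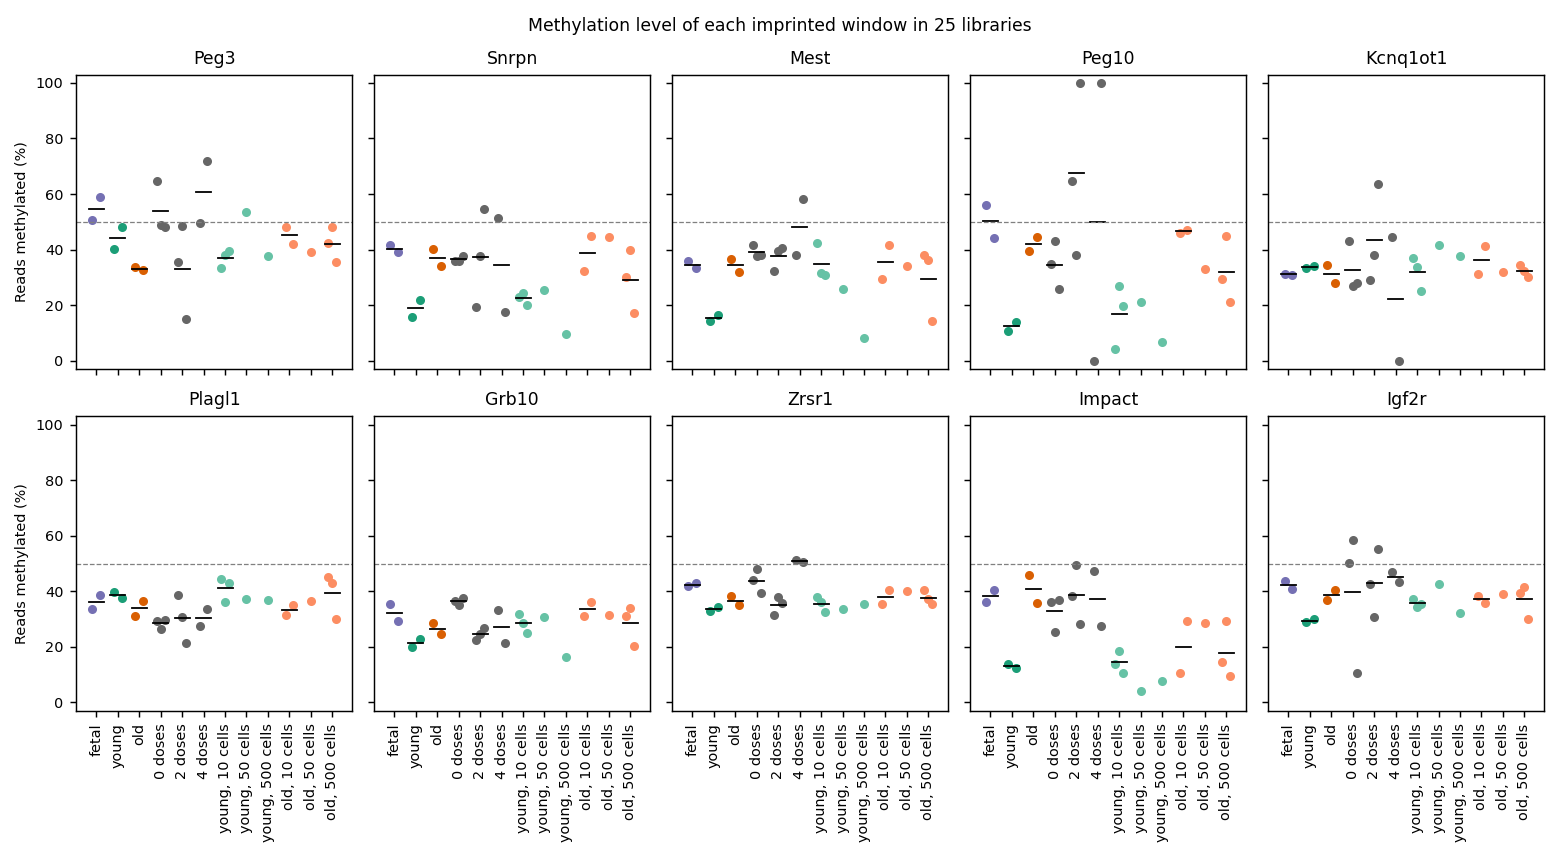
Percent of reads methylated (y axis) in each of 10 imprinted windows, by group (x axis). Each point is 1 library, the bar is the mean of groups with more than 1 library, and the dashed line marks 50%. Most points lie under the line, and Snrpn, Mest, Peg10 and Impact stand lower in the young than in the fetal and old groups.

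Snrpn, Mest, Peg10 and Impact were lower in young than in fetal HSCs and higher again in old HSCs. The other 6 windows passed the test in neither comparison. In both young libraries the 4 windows stood between 10.9% and 22.0%, while fetal and old libraries had 32.0% to 56.1%.

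Snrpn read 41.6% and 39.1% in the fetal libraries, 15.9% and 22.0% in young, and 40.3% and 34.0% in old. With 0 doses it read 35.9%, 35.9% and 37.6%, with 2 doses 19.5%, 37.7% and 54.7%, and with 4 doses 51.2% and 17.6%. The young group did not overlap the fetal, old or 0-dose groups, which was not counted over all windows and tiles. The 3 libraries from 10 young cells had 23.0%, 24.4% and 20.2%, that from 50 young cells 25.5% and that from 500 young cells 9.76% (95% Wilson interval 6.09% to 15.3%). The libraries from old cells had 32.4% and 44.9% (10 cells), 44.5% (50 cells), and 30.2%, 39.7% and 17.4% (500 cells).

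Mest read 35.9% and 33.3% in fetal, 14.2% and 16.4% in young, and 36.6% and 32.0% in old libraries. The 0-dose libraries had 41.6%, 37.9% and 38.0%, those with 2 doses 32.3%, 39.6% and 40.8%, and those with 4 doses 38.2% and 58.2%. After transplantation it read 42.5%, 31.6% and 30.8% from 10 young cells, 25.9% from 50 and 8.23% from 500 (5.33% to 12.5%). Thus Mest was low in the young libraries and in that from 500 young cells, and at 30.8% or more in those from 10 young cells. From old cells it read 29.3% and 41.8% (10 cells), 34.1% (50 cells), and 38.0%, 36.2% and 14.3% (500 cells).

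Peg10 read 56.1% and 44.3% in fetal, 10.9% and 14.1% in young, and 39.7% and 44.4% in old libraries. The 0-dose libraries had 34.7%, 43.2% and 25.8%. From young cells it read 4.31%, 26.8% and 19.7% (10 cells), 21.0% (50 cells) and 6.91% (500 cells; 4.23% to 11.1%). All 5 of these values were under 30%, whereas libraries from old cells had 46.0% and 47.1% (10 cells), 33.0% (50 cells), and 29.5%, 44.8% and 21.1% (500 cells). The lowest value from old cells thus lay below the highest from young cells. With 2 doses it read 64.8%, 38.1% and 100%, and with 4 doses 0% and 100%. The 3 values at either end rested on 42, 30 and 22 reads over 4 or 5 CpGs, and 0 of 30 reads allows a level of up to 10%.

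Impact read 36.2% and 40.3% in fetal, 13.9% and 12.6% in young, and 46.0% and 35.9% in old libraries. With 0 doses it read 36.0%, 25.3% and 37.0%, with 2 doses 38.3%, 49.6% and 28.4%, and with 4 doses 47.2% and 27.4%. Every transplanted library was lower than both fetal and both old libraries. From young cells the levels were 14.0%, 18.7% and 10.7% (10 cells), 4.21% (50 cells; 2.61% to 6.73%) and 7.69% (500 cells). From old cells they were 10.7% and 29.4% (10 cells), 28.5% (50 cells), and 14.4%, 29.2% and 9.36% (500 cells).

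Across all 25 libraries, all 4 windows were under 25% in 4 libraries. These were both young libraries, that from 500 young cells and 500 old cells replicate 3. The median over the 4 windows ran from 7.96% (500 young cells) to 47.7% (2 doses, replicate 3), while that over the other 6 windows stayed between 30.2% and 45.6%. The 4 windows were picked by their calls in these same data. Their low levels in the young libraries and their wider range follow in part from that choice.

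In tests, the same CpGs were used in every library of a fit, and p-values came from a moderated quasi-binomial fit over all windows and tiles, adjusted by Benjamini-Hochberg. A window was called at an adjusted p under 0.05 and a difference of at least 10 points. From fetal to young HSCs, 4 of 10 windows were called lower and 0 higher, while 4.38% of 100889 windows and tiles were called lower and 2.25% higher. Peg10 fell from 50.2% ± 8.32 (SD, n = 2) to 12.5% ± 2.24 (n = 2), a difference of -37.7 points (adjusted p = 2.39e-07). Impact fell from 38.8% ± 3.69 to 7.33% ± 2.73 over 12 shared CpGs (difference -31.4 points, adjusted p = 6.11e-07). The size depended on the CpGs used: over the CpGs of each library the young mean was 13.2% and the difference -25.0 points (adjusted p = 9.02e-05). Snrpn fell from 39.8% ± 2.35 to 17.5% ± 2.24 (-22.3 points, adjusted p = 0.00111) and Mest from 35.0% ± 1.24 to 14.0% ± 0.307 (-21.0 points, adjusted p = 0.000618). With limma on the mean of CpG levels Impact lost its call (-31.8 points, adjusted p = 0.0569), and with limma on log2 odds Snrpn and Mest lost theirs.

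The 6 windows without a call differed by -11.9 points (Igf2r) to 7.42 points (Kcnq1ot1) between young and fetal HSCs. Of these, the groups of 2 libraries each did not overlap at Peg3, Kcnq1ot1, Grb10, Zrsr1 and Igf2r and overlapped at Plagl1. How often such small groups do not overlap over all windows and tiles was not counted, so no difference is read from this. Grb10 was closest to a call, with 23.6% ± 2.09 against 34.4% ± 1.94 (adjusted p = 0.0643). The median difference of the 10 windows was -11.4 points and that of all windows and tiles 0.177 points.

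From young to old HSCs, 4 of 10 windows were called higher and 0 lower, while 4.29% of all windows and tiles were called higher and 0.29% lower. Both comparisons share the young libraries. Impact had 41.5% ± 8.38 (SD, n = 2) in old against 7.33% ± 2.73 in young (34.2 points, adjusted p = 1.42e-06). Over the CpGs of each library in place of shared ones, Impact differed by 27.7 points (adjusted p = 7.55e-05). Peg10 had 42.0% ± 3.32 against 12.5% ± 2.24 (29.5 points, adjusted p = 2.54e-05). Mest differed by 19.7 points (33.7% ± 1.82 against 14.0% ± 0.307, adjusted p = 0.00287) and Snrpn by 17.5 points (35.0% ± 4.35 against 17.5% ± 2.24, adjusted p = 0.0104). Of the other 6, Peg3 differed by -11.0 points without a call (adjusted p = 0.211). The median difference of the 10 windows was 7.78 points and that of all windows and tiles 1.54 points.

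These calls depended on the fit and on the pooled estimate of spread, and the differences at Snrpn, Mest and Impact on the young libraries. Without old replicate 1, Snrpn (14.45 points, adjusted p = 0.185) and Mest (18.4 points, adjusted p = 0.0802) lost the call against young. Snrpn also lost it without young replicate 1 (15.9 points, adjusted p = 0.0787). With the 0-dose mice in place of the young ones, within a fit of all 25 libraries, none of the 9 windows tested was called in either comparison. That fit called none of them with the young libraries either, so the lost calls cannot be laid to the change of controls. Peg10 could not be tested there. Against fetal HSCs the 0-dose group differed by 1.42 points at Snrpn, 4.72 at Mest and -2.55 at Impact. With each window's own spread in place of the pooled one, 0 windows or tiles were called. In a fit of all 25 libraries, 0 of 9 windows were called in either comparison. Of all windows and tiles, 1.76% were called there for young against fetal and 0.167% for old against young. Peg10 had no CpG with 5 reads in all 25 libraries and was not tested in that fit. For old against young, limma on the mean of CpG levels called Mest and Peg10, and limma on log2 odds called 0 windows or tiles.

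**Figure D2:**
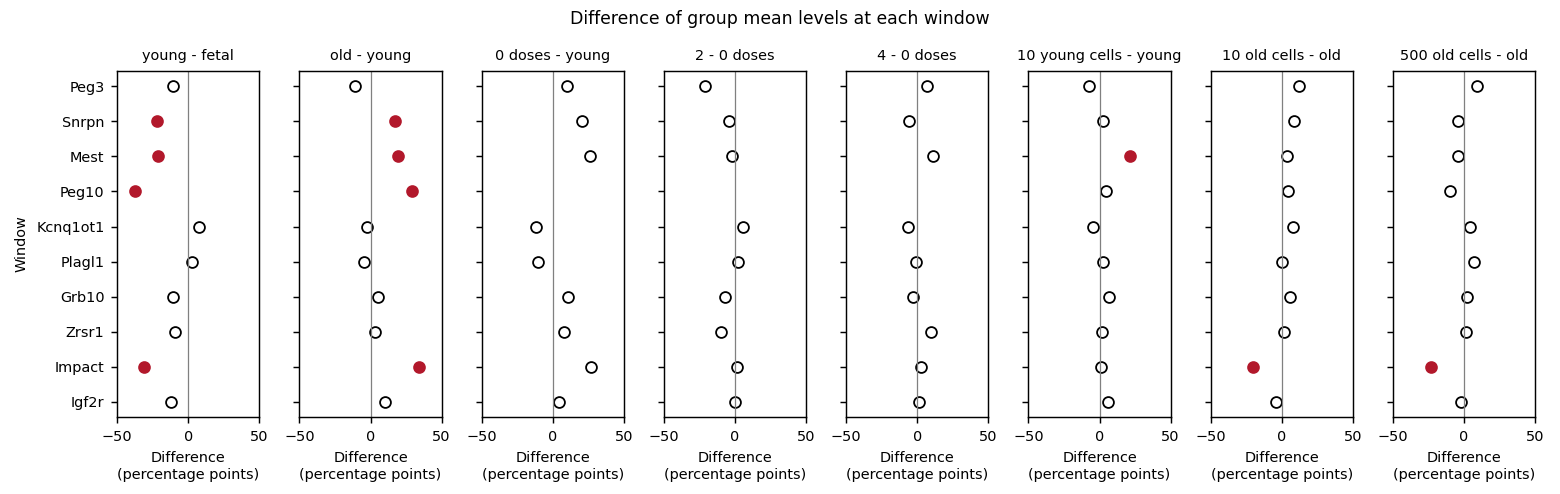
Difference of group mean levels in percentage points (x axis) at each of the 10 windows (y axis) in 8 comparisons, over the CpGs shared within a fit. Filled circles were called at an adjusted p under 0.05 and at least 10 points. Filled circles for Snrpn, Mest, Peg10 and Impact lie on the left for young minus fetal and on the right for old minus young. Peg10 has no circle in the 3 comparisons with 5-FU groups.

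Over the 6 months without drug, 0 of 9 windows were called between the 0-dose and the young group, while 0.0961% of 57203 windows and tiles were called in either direction. Group means lay apart at several windows, but without a call. Mest had 39.2% ± 2.15 (SD, n = 3) against 13.0% ± 1.12 (n = 2), a difference of 26.2 points (adjusted p = 0.14). Impact had 36.9% ± 11.1 against 9.66% ± 3.25 (27.2 points, adjusted p = 0.225), and Snrpn 42.1% ± 7.56 against 21.6% ± 4.01 (20.4 points, adjusted p = 0.926). In these 3 windows the groups did not overlap. With so few libraries no difference is read from this, as the share over all windows and tiles was not counted. At an unadjusted p under 0.05 there were 2 of 9 windows, against 5.79% of all windows and tiles. In a fit of only these 2 groups, Impact, Mest and Peg10 were called higher, while 0.937% of all windows and tiles were called in either direction.

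After 5-FU, 0 of 9 windows were called with 2 doses and 0 of 9 with 4 doses, each against 0 doses. Of all windows and tiles 0.00699% and 0.00175% were called. At an unadjusted p under 0.05 there were 1 and 0 windows, against 4.81% and 8.39% of all. With limma on the mean of CpG levels 0 and 0 windows were called, against 0.014% and 0.0472% of all. The median difference over the 9 windows was -1.97 points with 2 doses and 1.26 with 4. The 1 window at an unadjusted p under 0.05 was Peg3, with 33.0% ± 16.9 (SD, n = 3) after 2 doses against 53.9% ± 9.25 (n = 3) without (adjusted p = 0.982).

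Single libraries of these groups stood far from their replicates. Peg3 read 64.6%, 48.9% and 48.3% with 0 doses, 35.7%, 48.4% and 15.03% with 2 doses, and 49.6% and 71.9% with 4 doses. Kcnq1ot1 read 43.1%, 27.1% and 28.0% with 0 doses, 28.9%, 38.0% and 63.6% with 2 doses, and 44.4% and 0% with 4 doses. That last value is 0 of 71 reads over 8 CpGs, which allows a level of up to 4.23%. Igf2r read 50.2% and 58.4% in 0-dose replicates 1 and 2 but 10.6% (21 of 198 reads) in replicate 3. In 2 doses replicate 3, Peg3 was at 15.03%, Kcnq1ot1 at 63.6% and Peg10 at 100%. In 4 doses replicate 2, Peg3 was at 71.9%, Peg10 at 100% and Kcnq1ot1 at 0%. Windows thus moved in opposite directions within 1 library.

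The same libraries had many CpGs at the ends of the scale elsewhere in the genome. Among 64567 CpGs of intermediate level outside the windows, 40.2% read exactly 0% or 100% in 4 doses replicate 2, 16.1% in 4 doses replicate 1 and 12.8% in 2 doses replicate 3. The 3 libraries with 0 doses had 5.79% to 6.00%, and each of the other 19 libraries had at most 5.81%. The number of cells or DNA molecules behind a library is not given in the labels. Its part in these values was not tested.

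Outside the 5-FU groups Peg3 and Kcnq1ot1 varied less. Peg3 read 50.5% and 58.8% in fetal, 40.2% and 48.1% in young, and 33.6% and 32.6% in old libraries. After transplantation it read 33.5%, 37.9% and 39.4% (10 young cells), 53.6% (50), 37.9% (500), 48.2% and 42.1% (10 old cells), 39.1% (50), and 42.4%, 48.3% and 35.6% (500). Kcnq1ot1 read 31.4% and 30.8% in fetal, 33.5% and 34.2% in young, and 34.4% and 27.9% in old libraries. After transplantation it read 37.2%, 33.7% and 25.0% (10 young cells), 41.6% (50), 37.6% (500), 31.2% and 41.2% (10 old cells), 31.9% (50), and 34.4%, 32.3% and 30.2% (500). All 17 values of Kcnq1ot1 outside the 5-FU groups thus lay between 25.0% and 41.6%.

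The deepest windows moved least. Plagl1 ranged from 21.5% to 45.0% over the 25 libraries, Grb10 from 16.4% to 37.6% and Zrsr1 from 31.5% to 51.2%. Zrsr1 reached 50% only in the 2 libraries with 4 doses, and Plagl1 and Grb10 in none. Grb10 was under 20% in 2 libraries, young replicate 1 (19.96%) and that from 500 young cells (16.4%). Igf2r had a median of 39.2% and ranged from 10.6% to 58.4%.

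After transplantation of 10 young HSCs, Mest was called higher than in young HSCs, and none of the other 9 windows was called. Mest had 34.1% ± 7.29 (SD, n = 3) against 13.0% ± 1.12 (n = 2), a difference of 21.1 points (adjusted p = 0.0138). Of 90375 windows and tiles 1.11% were called higher and 17.5% lower. The median difference was 2.41 points over the 10 windows and -4.43 points over all. The call ended without young replicate 1 (21.9 points, adjusted p = 0.0643) or young replicate 2 (20.4 points, adjusted p = 0.14), and with either use of limma. In a fit of all 25 libraries Mest kept its call against young (21.1 points, adjusted p = 0.0392), while 3.15% of all windows and tiles were called. With the 0-dose mice as controls in that same fit, the difference was -5.09 points (adjusted p = 0.63). Impact was then called in place of Mest, lower by 25.1 points (adjusted p = 0.0357), while 4.55% of all windows and tiles were called, most of them lower. Levels of the same groups also moved at 64 tiles outside the windows that listed at least 30 CpGs and lay between 20% and 80% in every library, called half-methylated here, whose median was 37.9% and 39.6% in the young libraries and 46.4% to 50.8% in those from 10 young cells.

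After transplantation of old HSCs, Impact was called lower than in old HSCs, both from 10 and from 500 cells. From 10 cells it had 20.5% ± 13.3 (SD, n = 2) against 40.8% ± 7.38 (n = 2), a difference of -20.3 points (adjusted p = 0.026). From 500 cells it had 17.6% ± 9.97 (n = 3), a difference of -23.3 points (adjusted p = 0.0201). None of the other 9 windows was called in either comparison, whose old libraries are the same. Of all windows and tiles 23.4% and 8.49% were called lower, and 0.584% and 0.388% higher. The median difference of the windows was 4.04 points from 10 cells and -0.28 from 500, against -6.41 and -3.82 points over all. The call from 10 cells ended without 10 old cells replicate 1 (-10.9 points, adjusted p = 0.327) and without either old library (-15.1 and -25.5 points). The call from 500 cells ended without either old library (-18.1 and -28.5 points) and without 500 old cells replicate 1 (-21.7 points). With the balance of reads between methylated and unmethylated tiles removed, both calls also ended (-17.2 points, adjusted p = 0.0864, and -18.2 points, adjusted p = 0.136), as they did with either use of limma and in a fit of all 25 libraries.

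The change after 10 cells was not called as different between old and young donors at any of the 10 windows. The differences of the changes ran from -21.1 points (Impact, adjusted p = 0.892) to 19.3 points (Peg3, adjusted p = 0.765), and 0.0133% of all windows and tiles were called. At an unadjusted p under 0.05 there were 3 windows, against 5.30% of all. Between old and young donors after transplantation, fitted with the log10 of cell number, 0 of 10 windows and 0 of 93592 windows and tiles were called. At an unadjusted p under 0.05 there were 4 windows, against 4.32% of all, and limma on the mean of CpG levels also called 0 windows. Peg10 had 36.9% ± 10.7 (SD, n = 6) from old and 15.8% ± 9.64 (n = 5) from young donors, a difference of 21.1 points (adjusted p = 1). Snrpn had 36.4% ± 13.3 against 19.2% ± 6.31 (17.2 points, adjusted p = 1). The groups overlapped at all 10 windows.

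Libraries differed in the depth of methylated against unmethylated CpG-dense tiles, here tiles with at least 15 shared CpGs. The read balance of a library is its median number of reads per CpG at 1025 such tiles of 80% methylation or more, divided by that at 7584 tiles under 20%. It was 0.749 and 0.848 in the young, 0.754 and 0.891 in the fetal and 0.985 and 1.03 in the old libraries. The library from 500 young cells had 0.389 and 500 old cells replicate 3 had 0.540, the lowest values of the 25 libraries, and both had low Snrpn, Mest, Peg10 and Impact. The half-methylated tiles read 37.3% and 39.7% in the fetal libraries, close to young, and 52.3% and 49.9% in the old ones. Fetal and young libraries thus overlapped in both measures, and old libraries were higher in both. With the level of the half-methylated tiles removed, Peg10 and Impact kept their call between old and young, Snrpn (7.80 points) and Mest (10.5 points) lost it, and Peg3 and Plagl1 were called lower in old HSCs. With the read balance removed, Snrpn lost it (13.02 points, adjusted p = 0.127). All 4 windows kept their call between young and fetal HSCs under both removals. After transplantation, Mest kept its call from 10 young cells with the read balance removed, whereas Impact kept neither of its calls from old cells. Removing the level of the half-methylated tiles instead left Mest called from 10 young cells (15.7 points, adjusted p = 0.0171). Impact then kept its calls from 10 old cells (-20.5 points, adjusted p = 0.00943) and from 500 old cells (-22.0 points, adjusted p = 0.00853). The calls of Impact after transplantation thus depended on which measure was removed.

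Level and read balance were compared over the 25 libraries and, in a choice made after seeing the data, over the 17 libraries outside the 5-FU groups. For Snrpn, Pearson's r was 0.62 (Spearman's rho 0.61) over 25 libraries and 0.78 (rho 0.75) over 17. For Impact it was 0.56 (rho 0.61) and 0.69 (rho 0.78). Without the 2 libraries farthest from the median balance, r was 0.45 for both windows over the rest of the 25, and 0.65 and 0.67 over the rest of the 17. Mest had 0.46 (rho 0.30) over 25 libraries and 0.70 (rho 0.68) over 17, and 0.05 and 0.40 without the 2 farthest. Peg10 had 0.27 (rho 0.39) and 0.60 (rho 0.59), and 0.11 and 0.49 without them. All 4 windows that were called between young and fetal HSCs had a higher r outside the 5-FU groups, but so did every other window except Kcnq1ot1. Grb10 had 0.41 and 0.62, and 0.06 and 0.27 without the 2 farthest. Zrsr1 had 0.07 over 25 and 0.42 over 17 libraries, and Igf2r 0.17 and 0.43. For Peg3, Kcnq1ot1 and Plagl1, r lay between -0.11 and 0.16 over 25 libraries and between 0.02 and 0.09 over 17. All points share the fragments selected by the enzyme, and groups differ in balance, so these values are given as a description. The part of the read balance in the differences between groups was not tested beyond the removals above.

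**Figure D3:**
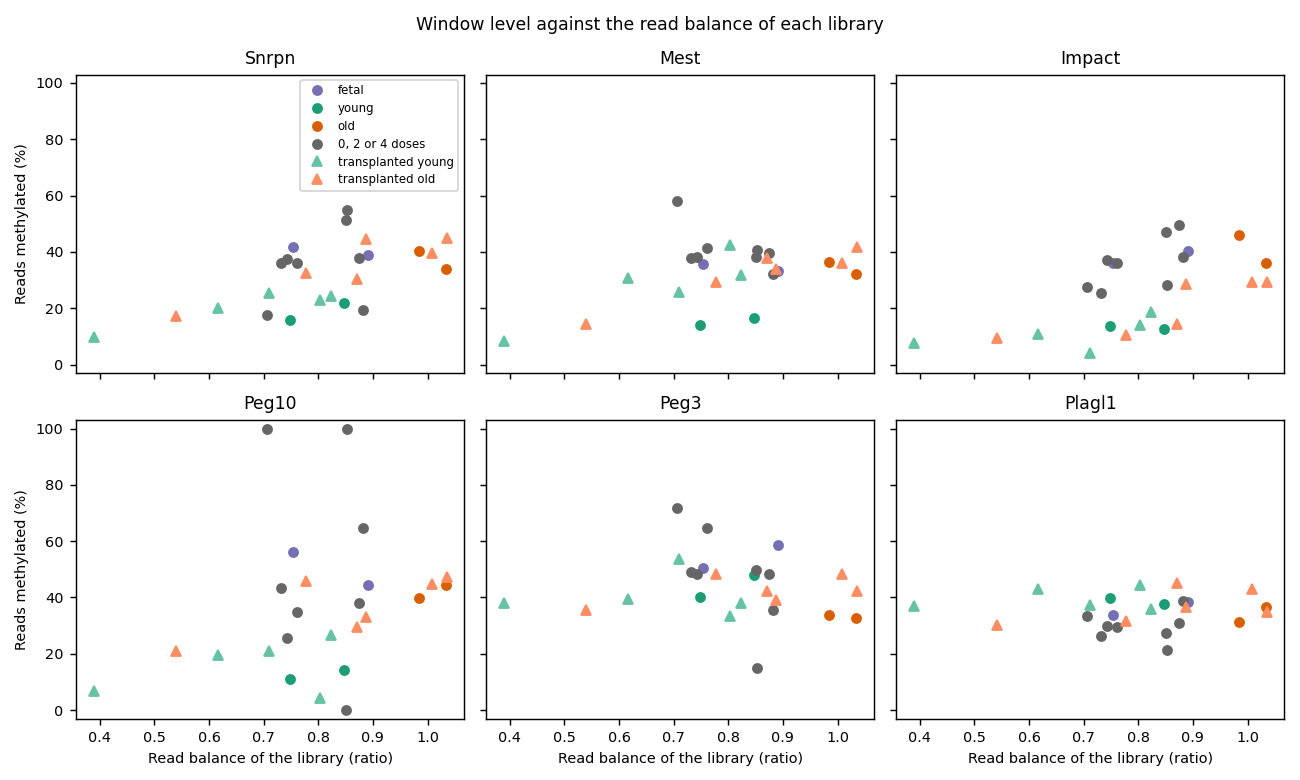
Percent of reads methylated in 6 windows (y axis) against the read balance of each of the 25 libraries (x axis, a ratio without unit). Each point is 1 library, triangles are transplanted. Snrpn and Impact rise with the balance, Plagl1 and Peg3 do not, and young libraries lie below fetal libraries of similar balance at Snrpn, Mest, Impact and Peg10.

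Within windows, single CpGs of intermediate level lay beside short runs of low CpGs. No CpG with at least 5 reads in at least 13 libraries had a median over 80% in any of the 10 windows. All such CpGs were between 20% and 80% in Peg3 (5), Snrpn (10), Mest (6), Peg10 (9) and Igf2r (19). In Grb10 28 of 68 were under 20%, in Zrsr1 7 of 52, in Kcnq1ot1 6 of 14, in Plagl1 5 of 37 and in Impact 4 of 14.

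The low CpGs formed runs. In Grb10, 20 CpGs at chr11:11926387-11926472 had medians of 3.92% to 18.3%, with 20% at the CpG 40 bp before and 44.1% at the next measured CpG, 299 bp after. In Plagl1, 5 CpGs at chr10:12810666-12810687 had 11.1% to 12.5%, with 32.1% at the CpG 19 bp before and 28.6% at the CpG 7 bp after. By the match of CpG spacing, this run lies after the start of Plagl1 and follows the CpGs shown in capitals. In Zrsr1, 2 CpGs at chr11:22872220-22872228 had a median of 0%, between CpGs at 36% and 54.5% that lay 18 and 11 bp away. In Kcnq1ot1, 3 CpGs at chr7:150481374-150481408 had 12% to 13.6% after a CpG at 37.7%. The runs had a median depth of 19 to 26.5 reads per CpG. Neighbouring CpGs can lie on different restriction fragments, which are amplified and read separately. The part of this in the steps was not tested.

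**Figure D4:**
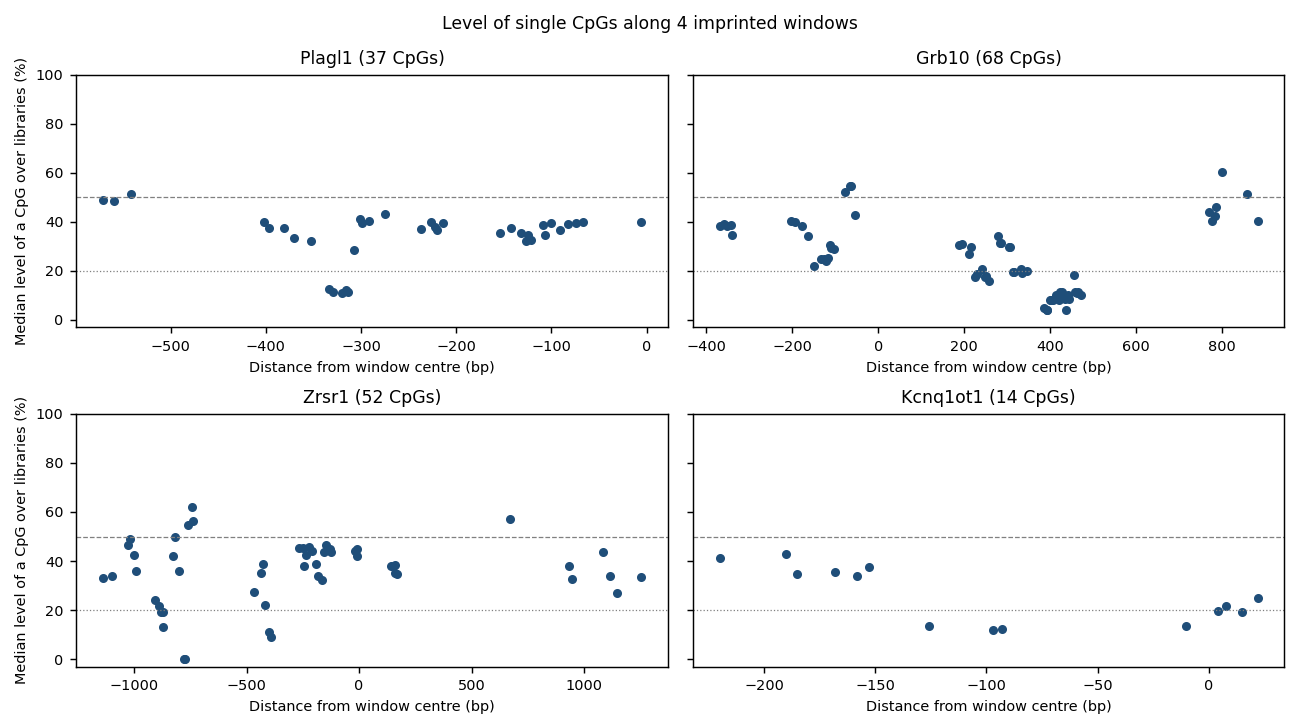
Median level over libraries (y axis, percent) of each CpG with at least 5 reads in at least 13 libraries, by distance from the centre of the window (x axis, bp), for Plagl1, Grb10, Zrsr1 and Kcnq1ot1. The dashed line marks 50% and the dotted line 20%. Each window has CpGs of 30% to 50% beside runs under 20%.

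Other imprinted regions moved in part with these windows. Of 7 other imprinted windows tested, 2 were called lower and 1 higher in young against fetal HSCs. Slc38a4, an amino acid transporter gene, had 9.74% ± 8.26 (SD, n = 2) in young against 43.4% ± 1.54 in fetal (adjusted p = 3.11e-05), and 39.3% ± 10.9 in old HSCs (called higher than young, adjusted p = 0.000147). Nnat, which encodes a small membrane protein, had 34.6% ± 1.09 in young against 52.5% ± 2.01 in fetal HSCs (adjusted p = 0.00474). Mcts2, a retrogene, went the other way, with 87.7% ± 3.75 in young against 49.0% ± 3.14 in fetal HSCs (adjusted p = 3.88e-08). Among 8 tested after transplantation, Nap1l5, a retrogene, was called higher from 10 young cells (63.5% ± 6.29 against 46.0% ± 4.58, adjusted p = 0.0134) and from 10 old cells (70.3% ± 1.31 against 56.0% ± 4.35, adjusted p = 0.0407).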

How the data were processed

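The authors deposited, for each of 25 RRBS libraries, a list of CpGs with methylated over total reads (the 2 counts in 1 cell) and a score. The deposited score is that share of methylated reads times a constant, and was not tested. Per the submitters' processing notes, positions refer to mm9. How reads were aligned, filtered and called by the authors is not given in the sources used here. Group and replicate come from the labels.

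The 10 windows, 9 other imprinted windows (coordinates from background knowledge, not checked against an annotation) and 1-kb tiles of the 19 autosomes were tested where at least 3 CpGs had at least 5 reads in every library of a fit. The model was logistic (quasi-binomial) with Williams weights, dispersions moderated across features as limma does and held at 1 or more, and an F test, with Benjamini-Hochberg adjustment over all features. Of the 4 fits, 1 held the 6 fetal, young and old libraries, 1 the 10 young and 5-FU libraries, 1 the 15 young, old and transplanted libraries and 1 the 11 transplanted libraries. Peg10 had too few shared CpGs in the fit with the 5-FU groups. P-values measure the spread between these libraries, which may be technical. The fits were tested on simulated reads.

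All 10 windows are named. Values of every library are given for windows called in any comparison and for the 3 with the widest range (Peg10, Kcnq1ot1 and Peg3); the others are given by range and median. The members, lists and rules were chosen with earlier results of these data known. Intervals are Wilson intervals at 95%, and the limit for a count of 0 is 3 reads. Alternatives covered depth minimums, CpG sets, limma, other fits, offsets, window edges and left-out libraries. Software: limma 3.58.1 (R 4.3.3); scipy 1.17.1, numpy 2.4.6, pandas 2.3.3 and matplotlib 3.10.9 (Python 3.11.15).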

Additional observations from a re-analysis of the deposited data

How the results depend on the processing

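The median level of each window over libraries moved by less than the replicate SD under a minimum of 10 reads, the mean of CpG levels, CpGs shared by all libraries and narrower windows, where these could be computed (not for Peg10 with 10 reads or shared CpGs, nor for Mest narrowed). Of the comparisons, young against fetal kept 4 called windows in most settings, but had 5 with at least 10 reads (Igf2r added, -14.1 points), 3 with limma on the mean of CpG levels (without Impact), 3 with narrowed windows (Mest not measured), 2 with limma on log2 odds, 0 in a fit of all 25 libraries and, in settings chosen after seeing the data, 0 with the own spread of each feature and 0 with the 0-dose group in place of young, where Snrpn and Mest reversed (1.42 and 4.72 points). Old against young had 2 with limma on the mean of CpG levels, 0 with limma on log2 odds, 0 in the fit of all libraries, 2 at 20 points, 0 with the own spread and 0 with the 0-dose group (Snrpn -8.41 and Mest -5.96 points). Between 0 doses and young, 1 window was called with limma on the mean of CpG levels, 1 in the fit of all libraries and 3 in a fit of only these groups. For 10 young cells the count was 0 with both uses of limma, with narrowed windows (Mest not measured) and with the own spread, and 3 with the half-methylated tiles removed (Mest higher, Peg3 and Kcnq1ot1 lower), where 38.4% of all windows and tiles were called; Mest reversed to -5.09 points with the 0-dose group. For 10 old cells it was 0 with at least 10 reads; for 10 and 500 old cells it was 0 with both uses of limma, in the fit of all libraries, with the read balance removed and with the own spread. Leaving out 1 library gave 4 to 4 windows for young against fetal, 2 to 4 for old against young, 0 to 1 for 10 young, 10 old and 500 old cells, and 0 elsewhere. With the replicate number as a block, the counts were 4, 4, 0, 0, 0, 1, 1, 1, 0 and 0, the same as without it. Same-numbered libraries of different groups did not deviate together (correlations from -0.07 to 0.05 over 17 pairs and 53793 features), so the numbers were not taken as pairs. The depth of Peg10 in 3 libraries after 5-FU (22 to 42 reads) limits its values there. The 0-dose group was put in place of young only within the fit of all 25 libraries, so the fit changed along with the controls. Peg10 was not tested in that fit. Donor age after transplantation already used only the groups compared, so that setting was not run.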
